A study of Amaranthus palmeri with 48 samples.

Results

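The genes described here are 200 Palmer amaranth (Amaranthus palmeri) gene models whose leaf RNA was lower 6 h after the herbicide lactofen and stayed near the untreated level after 2,4-D, atrazine and chlorsulfuron. They were chosen from 26353 gene models by their CPM (a gene's count per 1000000 counts of its library). A gene needed at least 1 CPM in all 18 untreated libraries and an untreated mean under 1000 CPM, which 14303 genes had. For each herbicide, d was the mean of log2(CPM + 1) in treated libraries minus that in untreated libraries of the same batch and line, averaged over both lines. A member had a lactofen d at or under -1.5 and a d of size under 0.5 for each of 2,4-D, atrazine and chlorsulfuron. The rule was met by 217 genes, and the 200 with the lowest lactofen d were kept, 1.40% of the 14303. All 200 are mRNA models.

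Lactofen is a diphenyl ether herbicide that inhibits protoporphyrinogen oxidase, an enzyme on the shared route to chlorophyll and heme. When the enzyme is blocked, protoporphyrin builds up outside its usual site and in light gives rise to singlet oxygen, which damages membrane lipids, so that treated leaves bleach and dry out. The other herbicides act elsewhere. 2,4-D is a synthetic auxin, atrazine blocks electron transport in photosystem II, chlorsulfuron inhibits acetolactate synthase in branched-chain amino acid synthesis, and mesotrione inhibits 4-hydroxyphenylpyruvate dioxygenase, which feeds plastoquinone and tocopherol synthesis.

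The 48 RNA-seq libraries came from growth-chamber plants raised from seed, of a resistant phenotype (titles KCTR) and a susceptible one (titles KSS), called the resistant and the susceptible line here. Batch 1 held untreated leaves and leaves sprayed with 2,4-D or mesotrione, batch 2 untreated leaves and leaves sprayed with atrazine or chlorsulfuron, and batch 3 untreated leaves and leaves sprayed with lactofen. Each combination of line, treatment and batch had 3 libraries, and all were labelled leaf. Titles number the plants 5, 7 and 8 (resistant) and 5, 6 and 7 (susceptible) in batches 1 and 2, and 1, 4 and 8 (resistant) and 3, 5 and 7 (susceptible) in batch 3. Plants were 10 to 12 cm tall and grown at 32 °C by day and 22 °C by night. Light was 500 µmol per square metre per second, and the spray volume given was 187 L per ha. Each phenotype stands on a single line here. The sources used here give no herbicide dose, no relation of the plants to each other and no basis of the resistance. The p-values therefore measure the spread between these libraries. Lactofen was sprayed in batch 3 alone, so every lactofen value was set against batch 3 controls.

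Library totals ran from 16583010 to 72979429 counts, and from 41828563 to 59908233 in batch 3. The lowest count of any member in a lactofen library was 6, and 4 members had fewer than 10 counts in some lactofen library. Plant numbers of the susceptible line did not always match the RNA. The check used 78 genes chosen in batch 1. Each was on (at least 2 CPM) in all libraries of some plants and off (under 0.5 CPM) in all libraries of the others. In batches 2 and 3 a gene was taken as on at 1 CPM or more. The susceptible libraries numbered 7 in batch 2 shared 93.6% to 100% of on or off states with susceptible plant 6 of batch 1. With their own number they shared 48.7% to 52.6%. In batch 3 the susceptible lactofen library numbered 5 shared 94.9% of states with the untreated library numbered 7, and the lactofen libraries numbered 3 and 7 shared 91.0% with each other, whereas resistant libraries of different number shared 67.9% to 75.6%. The susceptible lactofen libraries numbered 3 and 7 may thus come from the same plant. Every SE, p-value and separation given here takes the libraries of that group as separate plants. Counts of members that use libraries of mismatched number are also given without those of the susceptible line numbered 7. Without them the rule was met by 222 genes (181 of the 200 among them) when batch 2 was thinned and by 183 (174 of the 200) when batch 3 was. The files do not pair the gene identifiers with gene names or products, so the members' functions, their sequences and the leaf markers were not analysed here.

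Few of the genes that fell with lactofen stayed flat under the other herbicides of the rule. Of 2547 genes with a lactofen d at or under -1.5, 217 (8.52%) were flat under the other 3 herbicides of the rule. Atrazine d was at or under -0.5, a looser limit than that for lactofen, for 1859 of the 2547 (73.0%). Chlorsulfuron d was for 1863 (73.1%), both for 1486 (58.3%) and 2,4-D d for 632 (24.8%). A d at or over 0.5 was held by 71 under atrazine (2.79%), 32 under chlorsulfuron (1.26%) and 123 under 2,4-D (4.83%). Over all genes that passed the untreated limits, 49.0% had a d of size under 0.5 under atrazine. Under chlorsulfuron 49.0% of them had, and under 2,4-D 75.4%. Their share flat under all 3 herbicides and their shares at or under -0.5 were not counted. How far the 8.52% differs from genes at large was therefore not tested. The same rule with the roles of the herbicides exchanged gave 11 of 1019 genes lowered by atrazine alone, 2 of 719 lowered by chlorsulfuron alone and 0 of 58 lowered by 2,4-D alone, and 102 of 1655 raised by lactofen alone. These sets share controls in part, and no test was made of them. At the edges of the rule, members and genes left out had nearly equal values. The highest lactofen d of a member was -1.543, and the nearest gene left out by the cap of 200 had -1.542. The largest size of d among members was 0.491 for 2,4-D, 0.496 for atrazine and 0.499 for chlorsulfuron, and the nearest genes outside had 0.503, 0.5004 and 0.5001.

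In the lactofen leaves the members' RNA was well below the untreated level. The median lactofen d was -1.83, from -3.98 to -1.54, with 6 members at or under -3 and 60 at or under -2, beside a median of -0.08 over the 14303 genes. These values chose the members and are given as a description. In the resistant line the median d was -1.73 (-3.86 to -0.85), and the median member's mean CPM stood at 27.5% of its control (4.74% to 55.4%). In the susceptible line the median d was -2.02 (-4.10 to -0.87), and the median member stood at 23.7% of its control (2.50% to 64.3%). Bulk RNA cannot tell fewer cells of a type from less RNA per cell.

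Every lactofen library showed the drop. Together the members took 0.286% to 0.506% of the counts in the 6 lactofen libraries and 1.06% to 1.75% in the other 42, with no overlap. The rule chose the members by these 6 libraries, so this gap is a description. Against the mean of their own controls, the median member was at -1.82, -1.57 and -1.78 in resistant plants 1, 4 and 8, and at -2.16, -1.57 and -2.30 in the susceptible libraries numbered 3, 5 and 7. Between 178 and 195 of the 200 members were down by 1 or more in a lactofen library, where 23.4% to 32.2% of the 14303 genes were. The susceptible library numbered 5 had the smallest count, 178.

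**Figure D1:**
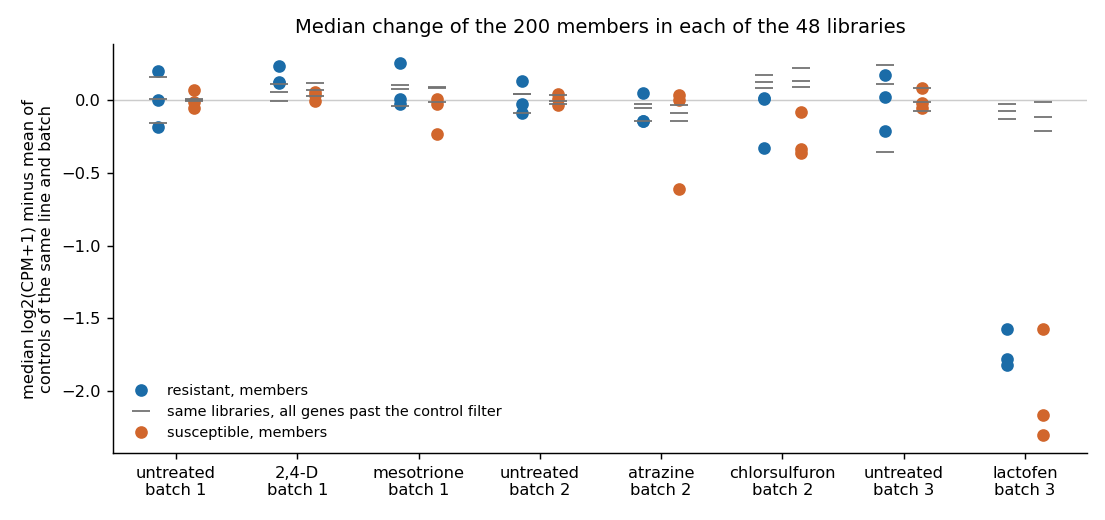
Median over the 200 members of log2(CPM + 1) in a library minus the mean of the untreated libraries of its own line and batch, for each of the 48 libraries (1 point per library, grouped by treatment). The 6 lactofen libraries sit between -2.30 and -1.57, and the other 42 between -0.61 and 0.26.

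Most members were separated library by library. In the resistant line 191 members had all 3 lactofen libraries below all 3 batch 3 controls (28.8% of the 14303 genes did), in the susceptible line 193 (32.9%), and in both lines 185 (24.4%). All 6 lactofen libraries lay below all 18 untreated libraries for 144 members (18.0% of the genes) and below all 42 other libraries for 110 (8.25%). Without the susceptible libraries numbered 7 of batches 2 and 3 these counts were 193 in the susceptible line (37.2% of the genes), 185 in both lines (25.2%), 145 below all untreated libraries left (18.6%) and 111 below all others left (8.71%). The rule used these libraries, so nothing is read from the gap between the members and the other genes. In a fit of all 48 libraries (edgeR's quasi-likelihood test with Benjamini-Hochberg adjustment over 20645 genes), 196 members were called lower in the resistant line, where 27.6% of genes were, and 196 in the susceptible line, where 29.3% were. Of the members 192 were called lower in both lines, as were 23.1% of genes, and 0 were called higher, where 26.1% of genes were in the resistant and 30.4% in the susceptible line. Without the libraries numbered 7 of batch 3, 191 were called lower in the susceptible line, where 5007 of 20893 genes were.

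**Figure D2:**
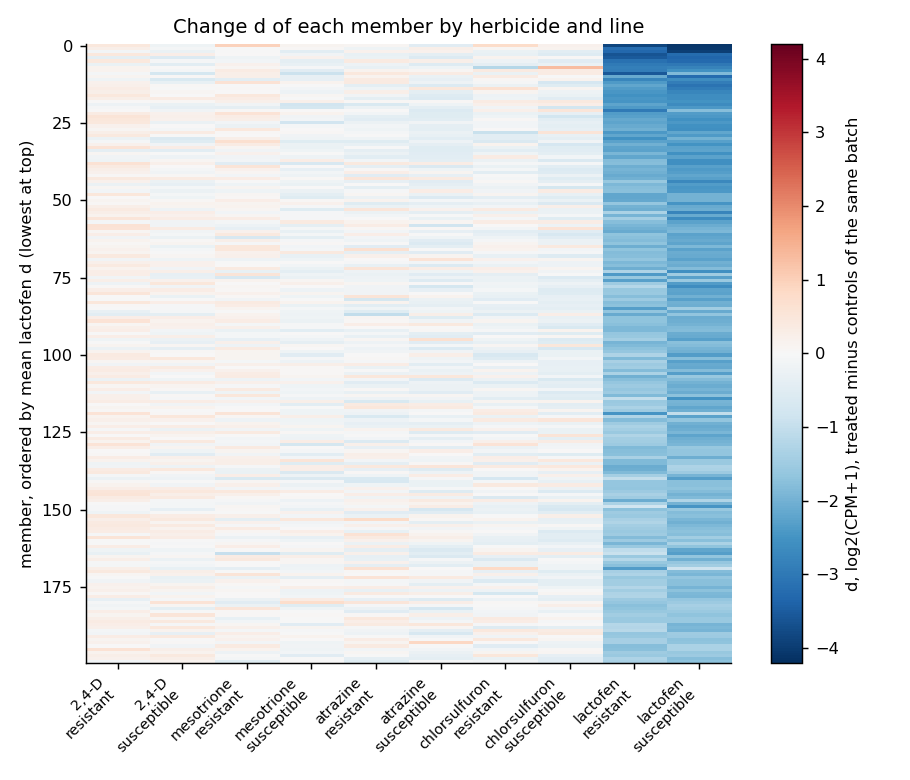
Heat map of d (log2 scale, colour) for the 200 members (rows, ordered by lactofen d) under each herbicide in each line (columns). The lactofen columns are low in every row, from -4.10 to -0.85; the other columns are paler in most rows and reach -1.19 and 1.29, both under chlorsulfuron.

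The member with the lowest lactofen d was AmaPaChr10Ag172510. Its batch 3 controls held 174, 80.6 and 592 CPM in the resistant line and 323, 86.7 and 348 CPM in the susceptible line. After lactofen it held 11.8, 9.80 and 19.2 CPM in the resistant line and 13.7, 5.98 and 18.2 CPM in the susceptible line. All 6 treated libraries were below all 6 controls of their batch. The d was -3.98, and the edgeR log2 change was -4.70 ± 0.70 (SE) in the resistant and -4.35 ± 0.69 in the susceptible line. Its controls differed between batches, however, at 11.9 to 58.8 CPM in batch 1 and 9.57 to 18.0 CPM in batch 2. Its lactofen level thus overlapped the controls of batch 1 and of batch 2.

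The second lowest, AmaPaChr08Ag144270, was steadier across the untreated libraries. Its batch 3 controls held 48.4, 29.3 and 45.8 CPM in the resistant and 62.4, 52.2 and 57.7 CPM in the susceptible line, and its lactofen libraries 6.89, 1.53 and 3.39 CPM and 3.24, 2.67 and 1.72 CPM. No library outside lactofen fell under 18.4 CPM. The edgeR log2 change was -3.50 ± 0.40 (SE) in the resistant and -4.50 ± 0.42 in the susceptible line, which left 9.56% and 4.43% of the control mean.

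The members with the highest untreated level were AmaPaChr01Ag020310, with a mean of 888.5 CPM over the 18 controls, and AmaPaChr01Ag005970, with 626.1 CPM. AmaPaChr01Ag020310 held 596, 896 and 346 CPM in the resistant and 409, 571 and 349 CPM in the susceptible controls of batch 3, and 89.6, 126 and 212 CPM and 226, 149 and 158 CPM after lactofen. The treated and control libraries did not overlap in either line. Of its batch 3 controls, 5 of 6 were below the lowest control of batches 1 and 2, which was at 895 CPM. AmaPaChr01Ag005970 fell further, from 429, 658 and 266 CPM to 19.4, 32.9 and 71.4 CPM in the resistant line and from 293, 526 and 167 CPM to 59.8, 10.3 and 35.2 CPM in the susceptible line. Its lactofen libraries were again all below its controls, and 9.15% and 10.7% of the control mean was left.

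**Figure D3:**
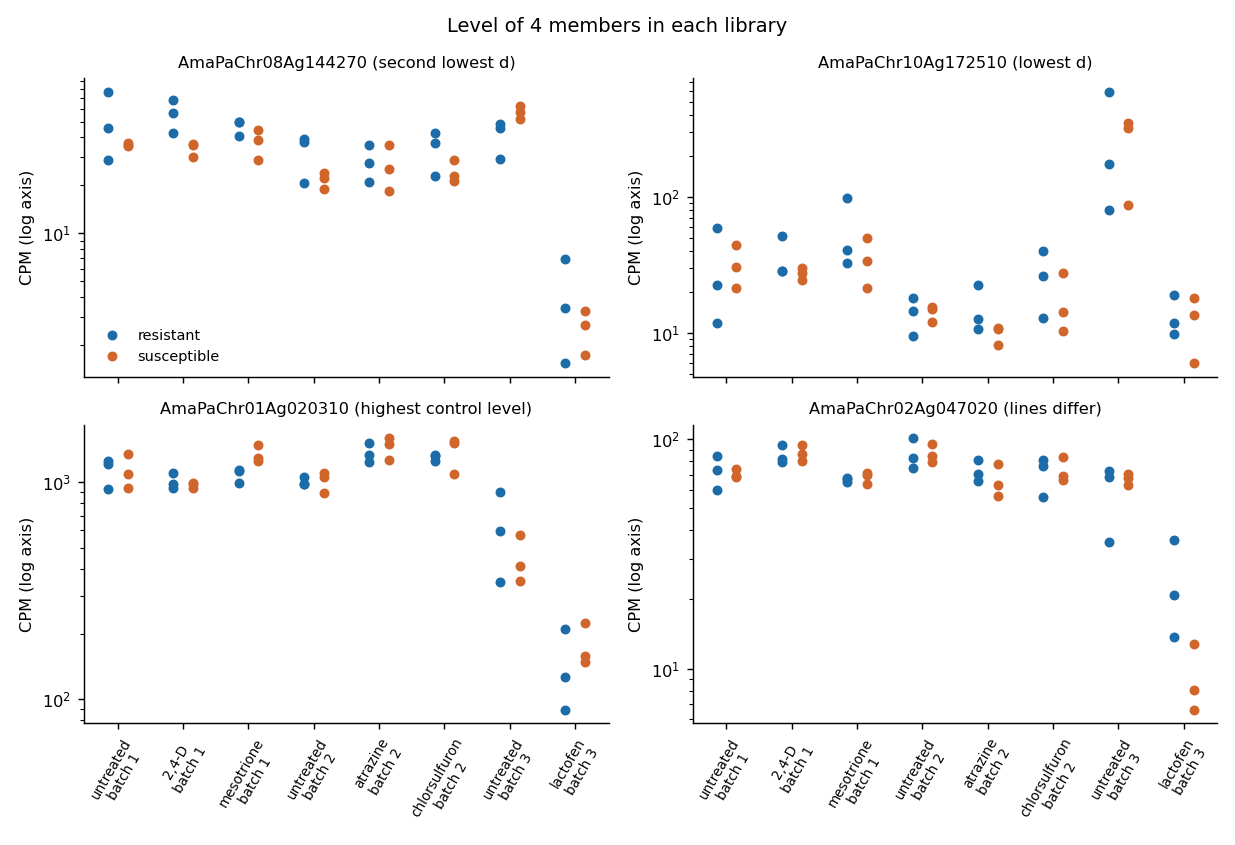
CPM (log axis) of AmaPaChr08Ag144270, AmaPaChr10Ag172510, AmaPaChr01Ag020310 and AmaPaChr02Ag047020 (described below) in all 48 libraries, 1 point per library, by treatment and batch. The lactofen points lie below the batch 3 controls in each panel except that of AmaPaChr02Ag047020. There a resistant lactofen point lies at the level of a resistant control. For AmaPaChr10Ag172510 the lactofen points overlap the batch 2 controls, 9.57 to 18.0 CPM, and the range of the batch 1 controls.

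The members covered a wide range of untreated levels. Untreated means ran from 4.27 to 888.5 CPM with a median of 42.7 CPM (25.8 CPM over the 14303 genes); 46 members were over 100 CPM and 17 under 10 CPM. The 4 members not called lower in the resistant line had log2 changes of -1.99 to -0.87 with edgeR adjusted p-values of 0.0594 to 0.0943, and the 4 in the susceptible line -1.82 to -0.63 with 0.143 to 0.304. Each of these 8 was called in the other line. Some of them had widely spread controls: AmaPaChr13Ag200470, named after its values were seen, held 82.7, 57.1 and 556 CPM in the resistant and 135, 6.57 and 123 CPM in the susceptible controls of batch 3.

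Batch 3 controls set the reference for lactofen, so the members' controls were compared across batches. For the median member, batch 3 controls were 0.08 higher on the log2 scale than the controls of batches 1 and 2 in the resistant line and 0.06 higher in the susceptible line, while the median over the 14303 genes was -0.28 and -0.31. Averaged over the lines, the difference was within 0.5 for 149 members, 1 or more for 14 and -1 or less for 2. It was over 0.5 for 48 members in the resistant and 37 in the susceptible line (8.40% and 7.00% of the 14303 genes). It was under -0.5 for 16 and 17 members (31.4% and 31.7% of the genes). The rule used the batch 3 controls, so nothing is read from this gap. Set against the controls of batches 1 and 2, the lactofen libraries had a median of -1.79 (-4.49 to -0.23): 187 members were at or under -1, 140 at or under -1.5, and 13 lay between -1 and 0. These values use CPM alone. The batch 3 difference over the 14303 genes, -0.28 and -0.31 in the controls, is therefore not removed from them or from these counts. The 2 members over -0.5 had batch 3 controls well above the others. For every member with raised batch 3 controls, AmaPaChr10Ag172510 among them, the low lactofen level and a high batch 3 control cannot be told apart. With the controls of all 3 batches in the rule, 342 genes met it, among them 110 of the 200.

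**Figure D4:**
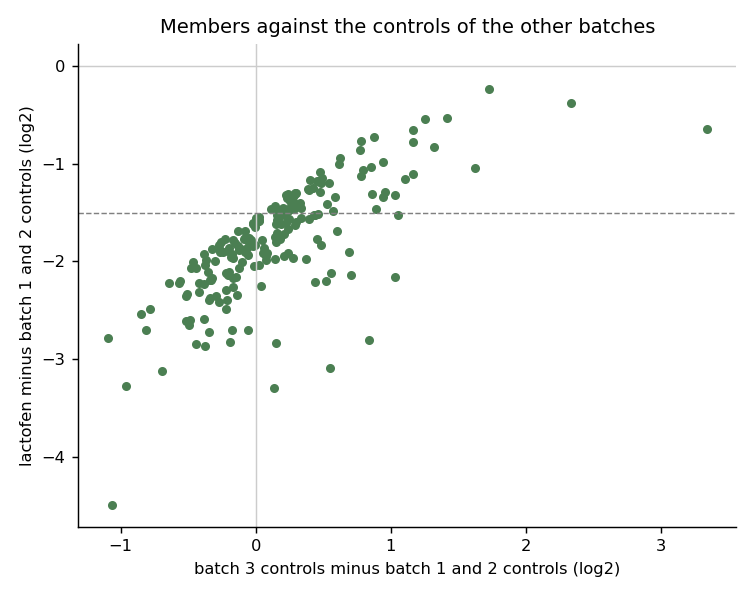
For each of the 200 members, batch 3 controls minus batch 1 and 2 controls (x axis, log2) against lactofen minus batch 1 and 2 controls (y axis, log2), both averaged over the lines, with the limit of -1.5 dashed. All points are below 0 on the y axis, and 140 are at or under the limit; AmaPaChr10Ag172510 is the point at 3.34 on the x axis.

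Mesotrione was not used to choose the members, although it shares its controls with 2,4-D, and it left them near the untreated level. The median d after mesotrione was 0.06 in the resistant line (-0.96 to 0.97) and -0.10 in the susceptible line (-0.90 to 0.73). Averaged over the lines, 194 of 200 members had a size under 0.5, as did 93.8% of the 14303 genes. By edgeR 0 members were called in the resistant line (8 had an unadjusted p under 0.05, as did 4.46% of all genes) and 0 in the susceptible line (9 had, and 3.66% of all genes), and DESeq2 called 0 in each. Few other genes responded at 6 h either, 0.203% of all tested in the resistant line and 0.0% in the susceptible line, so the flat members do not set this group apart.

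After the herbicides of the rule the members were flat on average over the lines by choice, with medians of 0.10 for 2,4-D, -0.15 for atrazine and -0.20 for chlorsulfuron. Single lines and plants went past that. In the susceptible line 28 members were called lower after chlorsulfuron (15.0% of all genes tested were) and 0 higher (18.1%), and in the resistant line 6 were called lower (11.8%) and 0 higher (14.8%). Without the libraries numbered 7 of batch 2, the susceptible counts were 3 lower and 0 higher after chlorsulfuron (16.7% of genes were called in either direction), and 0 lower and 1 higher after atrazine (26.2%). Atrazine gave 1 lower and 2 higher in the resistant line, where 15.4% and 16.4% of genes were, and 0 lower and 3 higher in the susceptible line, where 15.4% and 20.6% were. After 2,4-D 0 members were called in the resistant line (3.14% of genes) and 0 in the susceptible line (5.27%), all by edgeR at an adjusted p under 0.05. Atrazine and chlorsulfuron share their controls. Among single libraries outside lactofen, the susceptible atrazine library numbered 5 stood lowest, with a median of -0.61 and 28 members down by 1 or more (20.8% of the 14303 genes were), while the libraries numbered 6 and 7 had 0.03 and 0.00. The resistant chlorsulfuron plant 7 had a median of -0.33 and the susceptible chlorsulfuron libraries numbered 5, 6 and 7 had -0.08, -0.37 and -0.34. The name "lowered by lactofen only" thus holds for means over both lines and not for each line or plant.

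Whether the lines differed in response was tested with interaction terms, which the rule did not use since it averaged the lines. For lactofen, edgeR called 4 of 200 members, all less lowered in the resistant line in this fit, where 2.26% of all genes tested were called and 1.09% in that direction. At an unadjusted p under 0.05 there were 27 members, 21 less lowered in the resistant and 6 less lowered in the susceptible line (15.5% of all genes passed). The median resistant minus susceptible difference was 0.19 over the members and -0.05 over all genes tested. This median also turned on single libraries: it was 0.03 without the susceptible lactofen library numbered 7, 0.08 without resistant lactofen plant 4 and 0.45 without the susceptible lactofen library numbered 5, and it turned to -0.04 without both susceptible libraries numbered 7 of batch 3 (-0.09 over all genes). On the scale of d, 143 members were lower in the susceptible and 57 in the resistant line, with a median difference of 0.29, beside 0.36 over all 2547 genes lowered by lactofen. The count of calls turned on single libraries. It was 37 (34 of them less lowered in the resistant line) without the susceptible lactofen library numbered 5, when 12.7% of all genes were called. Without those of the susceptible line numbered 7 it was 2 (1.11% of all genes). It was also 2 without resistant lactofen plant 1 (0.998%) or plant 4 (1.37%). The same count, 2, came without the susceptible lactofen library numbered 3 (0.693%) or the susceptible control numbered 7 (1.20%). Without resistant lactofen plant 8 it was 7 (3.74%). The share over all genes moved as well, so no change is read as particular to the members. Without plant 4 the calls were 1 in each direction, and without plant 8 they were 5 less lowered in the resistant and 2 less lowered in the susceptible line. The count was 0 when batch 3 alone was fitted, where 0.0356% of all genes were called. In that fit 11 members had an unadjusted p under 0.05, as did 1603 of 19689 genes.

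AmaPaChr02Ag047020 had the largest difference of the 4. Its batch 3 controls held 72.8, 68.3 and 35.7 CPM in resistant plants 1, 4 and 8 and 70.8, 67.5 and 63.0 CPM in the susceptible libraries, and after lactofen it held 13.7, 20.8 and 36.5 CPM and 6.61, 12.8 and 8.09 CPM. All susceptible lactofen libraries were below all resistant ones, and resistant plant 8 had nearly the same CPM with and without lactofen. The edgeR values also use a TMM scaling factor. It was 0.643 for the control of plant 8, the lowest of the 48 libraries, and 0.930 for its lactofen library. On the scale of the test that control therefore stood above the lactofen library. The log2 change was -1.35 ± 0.20 (SE) in the resistant and -2.90 ± 0.22 in the susceptible line, a difference of 1.55 ± 0.29 (edgeR adjusted p = 0.00225). The SE and p take the susceptible lactofen libraries numbered 3 and 7 as separate plants, though they shared 91.0% of on or off states. The difference stayed past the threshold without any 1 of the 12 libraries of batch 3 and was lost (adjusted p = 0.470) when batch 3 was fitted alone. AmaPaChr15Ag233960 had controls of 20.2, 20.7 and 13.8 CPM in the resistant and 21.5, 16.2 and 20.3 CPM in the susceptible line, and 9.68, 9.23 and 6.12 CPM and 2.20, 2.77 and 4.43 CPM after lactofen. The lines did not overlap after lactofen, and the difference was 1.48 ± 0.42 (SE; edgeR adjusted p = 0.0486), which was lost without any 1 of 8 of the 12 libraries (adjusted p from 0.0214 to 0.188 over the 12).

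**Figure D5:**
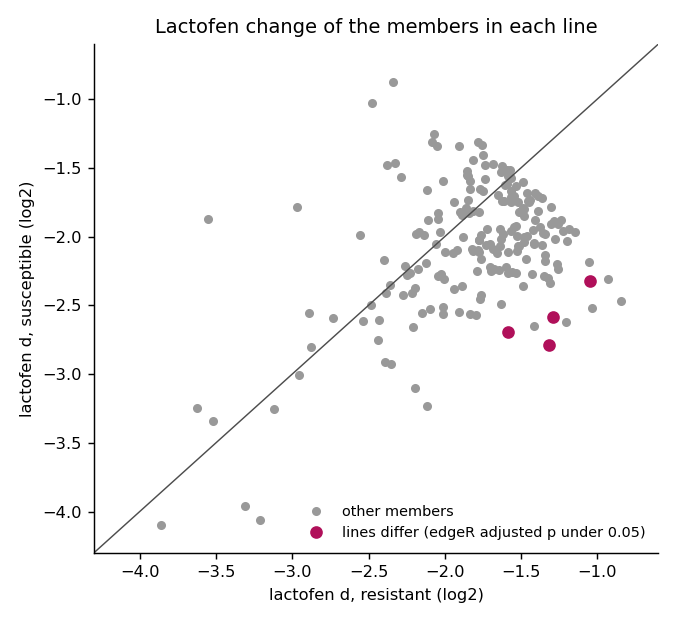
Lactofen d of each of the 200 members in the resistant line (x axis, log2) against the susceptible line (y axis, log2), with the line of equal change. Points below the line, 143 of 200, fell further in the susceptible line, as did 74.8% of all genes lowered by lactofen. The 4 coloured members are those called by the interaction test.

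No member's response to 2,4-D, atrazine or chlorsulfuron was called different between the lines. EdgeR gave 0 members for each, with 0, 5 and 3 at an unadjusted p under 0.05 (1.02%, 4.11% and 2.68% of all genes), and DESeq2 gave 0 for each. Over all genes tested the shares called were 0.0%, 0.00969% and 0.0%, so the members do not stand apart.

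Without herbicide the members were at like levels in both lines. The resistant minus susceptible log2 difference over the 3 batches had a median of -0.02 (-1.21 to 1.11), and 1 member was called (edgeR), where 3.05% of all genes tested were. At an unadjusted p under 0.05 there were 33 (16 higher and 17 lower in the resistant line; 16.3% of all genes), and DESeq2 called 5, where it called 5.36% of all genes. The member called was AmaPaChr01Ag003310. Its lowest, median and highest values over the 9 resistant controls were 1.96, 3.26 and 7.89 CPM, and over the 9 susceptible controls 5.33, 9.06 and 16.7 CPM. The lines overlapped over all batches and did not overlap within any batch. The difference was -1.21 ± 0.23 (SE; adjusted p = 0.00221), and -1.22, -0.91 and -1.5 in batches 1, 2 and 3, none of which was called alone (edgeR adjusted p = 0.413, 0.589 and 0.125). The plants of batches 1 and 2 carry the same numbers and matched in on or off states, apart from the susceptible number 7, so the 9 libraries of a line are not 9 plants and the pooled SE and p take them as such. From the controls of batches 1 and 3 alone the difference was -1.36 (adjusted p = 0.0135), and over all alternatives run for this gene that left out single controls the adjusted p was 0.000496 to 0.00742. Lactofen lowered it in both lines to 0.844, 0.861 and 1.19 CPM and 2.63, 1.97 and 2.37 CPM, and the interaction was not called (adjusted p = 0.946).

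Among untreated plants the members varied about as the other genes did. The SD of log2(CPM + 1) over the 18 controls had a median of 0.36, beside 0.40 over the 14303 genes. The range over the 18 had a median of 1.35 and went from 0.49 to 7.10, under 1 for 37 members and over 2 for 46. The widest was AmaPaChr13Ag200470, described above.

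The members were spread over the genome as the identifiers number it. They carried 17 chromosome labels, with 26 on label 1 (of 1503 genes that passed the untreated limits), and their share of a label's genes ran from 0.535% on label 11 to 2.28% on label 13. Members next to each other in the numbering formed 2 pairs, and 12 pairs lay within 5 places. One of the adjacent pairs joined AmaPaChr10Ag172510 to a gene with a d of -1.79, and the other had d of -1.93 and -1.96. Genes that overlap or resemble a near copy are uncertain, since the sources used here do not say how reads shared by them were counted.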

How the data were processed

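Leaf RNA (stranded polyA libraries, read as 150 bp pairs) was measured in 48 samples. The authors deposited 1 table of whole-number counts per gene model and sample. Trimmomatic, FastQC, STAR and DESeq2 are named in the submitters' processing notes. The genome build, annotation, strand setting and treatment of shared reads are unknown, being not given in the sources used here. A row named "*" held 0 counts and was left out. Groups came from the labels of phenotype, treatment and batch. CPM was computed from column sums, and d from log2(CPM + 1) with a pseudocount of 1.

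The members and lists were chosen with earlier results of these data known. The lactofen, 2,4-D, atrazine and chlorsulfuron means are therefore descriptions. Tests on the deposited counts used edgeR 4.0.16 (R 4.3.3): quasi-likelihood F tests, TMM factors (0.643 to 1.26), the filterByExpr filter (20645 genes, all 200 members), 1 fit with a mean for each of 16 groups (32 residual degrees of freedom) and calls at adjusted p under 0.05. The script was tested on simulated data. The text names the 2 members with the lowest lactofen d, the 2 with the highest untreated mean, and, for each test, up to 2 called members in each direction with at least 5 CPM in some group.

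Alternatives were total counts or DESeq2 size factors in place of TMM, no filter, fragment counts, DESeq2 1.42.0, the contrast's own batch alone, each library left out in turn, other forms of the rule, and plant number as a block. Leaving out the susceptible libraries numbered 7 and fitting the controls of batches 1 and 3 alone were chosen after seeing the data. Same-numbered libraries deviated together (correlation of deviations at least 0.16) except in the susceptible lactofen group (lowest -0.20), so the main fit has no block. Of the counts above 0, 99.1% were even, as when both reads of a pair are counted. The common biological coefficient of variation was 0.458.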

Additional observations from a re-analysis of the deposited data

Results flagged for a closer look

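By the interaction test, 4 members responded to lactofen unequally in the resistant and the susceptible line (edgeR, adjusted p under 0.05), and each was less lowered in the resistant line. The resistant minus susceptible log2 difference was 1.55 for AmaPaChr02Ag047020, 1.48 for AmaPaChr15Ag233960, 1.26 for AmaPaChr07Ag119320 and 1.16 for AmaPaChr10Ag167380. The last was lowered by 1.69 in the resistant and by 2.86 in the susceptible line, and AmaPaChr07Ag119320 by 1.36 and 2.61. Among the 20645 genes tested 2.26% were called, so 4 of 200 is near the background. Whether the mismatch of plant numbers in the susceptible line bears on these values was not tested beyond leaving out the libraries numbered 7.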

How the results depend on the processing

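The rule gave 217 genes as stated, 342 with the controls of all 3 batches and 136 with the lactofen limit asked of each line (133 of the 200 members kept). With TMM factors it gave 228 (161 kept) and with log2(CPM + 0.5) 231 (190 kept). Without the susceptible libraries numbered 7 it gave 222 (batch 2) and 183 (batch 3), and leaving out 1 library gave 194 to 265 (166 to 199 kept). Without 1 library, members called lower after lactofen numbered 193 to 197 in the resistant and 193 to 196 in the susceptible line. Of all genes tested (20914 to 20958), 5165 to 5384 and 5331 to 6450 were called lower. Without the susceptible libraries numbered 7, 191 members were called lower in that line, where 5007 of 20893 genes were. The count of members whose lactofen response differs between the lines was 4 (2.26% of all genes). It was 2 with total counts (1.16%), 0 with batch 3 alone (0.0356%) and 10 with DESeq2 (4.65%). Without the susceptible libraries numbered 7 it was 2 (1.11%), and without 1 library 2 to 37 (0.693% to 12.7%). Plant number as a replicate block gave 9 (5.18% of all genes), in a fit where susceptible numbers did not pair the lactofen libraries; no block could be had for the untreated lines, whose plants differ. The count for the untreated lines was 1 (3.05% of all genes). It was 2 with total counts (2.63%), 3 with the 18 controls alone (1.80%) and 5 with DESeq2 (5.36%). With the controls of batches 1 and 3 it was 1 (0.625%). Without the susceptible libraries numbered 7 it was 1 for batch 2 (1.67%) and 1 for batch 3 (2.46%). Leaving out 1 library gave 1 to 3 (1.83% to 2.90%). The cause of these changes was not tested. Counts for mesotrione and for the 2,4-D, atrazine and chlorsulfuron interactions were 0 under all alternatives run. Depth limits the lowest members, of which 4 had fewer than 10 counts in a lactofen library.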
